A study of Homo sapiens with 8 samples.

Results

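The 10 genes described here are the members of the AP-1 transcription factor families (FOS, FOSB, FOSL1, FOSL2, JUN, JUNB and JUND) together with EGR1, IER2 and MYC. Most of them are immediate early genes, which cells switch on within minutes of a growth signal. They were taken by symbol, and all 10 were present among the 56832 gene rows. RNA was sequenced from Nthy-ORI, an established epithelial line from normal human thyroid, after ribosomal RNA depletion. Every culture, controls included, was first held for 24 h in medium free of phenol red with charcoal-stripped serum, which lacks thyroid hormone. The 4 groups of 2 libraries each received 10 nM T3 (triiodothyronine, the active thyroid hormone) for 24 h, the NaOH vehicle for 24 h, T3 for 6 h or vehicle for 6 h. All libraries come from 1 cell line. The labels do not say whether the replicates were grown apart, and the p-values below therefore cover the variation from library to library, part or all of which can be technical.

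AP-1 is a dimer of basic leucine zipper proteins. Jun proteins pair with each other or with Fos proteins, which need a Jun partner to bind DNA, and the make-up of the dimer sets how strongly it activates. FOS and FOSB transcripts are induced briefly and decay fast, while FOSL1 and FOSL2 proteins lack the strong activation domain of FOS and persist longer. EGR1 is a zinc finger factor that responds to the same MAP kinase signals, and MYC, with its partner MAX, drives ribosome production and cell growth. Ligand-bound thyroid hormone receptors are known to oppose AP-1 activity in several cell types.

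Reads counted in genes ran from 2517983 to 8201606 per library and made up 19.5% to 24.4% of each library's table at 24 h and 12.9% to 17.1% at 6 h. Reads aligned to more than 1 place made up 47.6% to 57.1% at 24 h and 61.2% to 67.4% at 6 h. The correlation of log2 CPM was at least 0.947 between libraries of 1 time and at most 0.733 between libraries of different times. The labels do not say whether the 2 times were processed together, so time and preparation cannot be told apart. KLF9 and HR, established targets of thyroid hormone receptors, checked the T3 labels. KLF9 had 37 and 70 counts with T3 and 3 and 2 with vehicle at 6 h, but 18 and 29 in the libraries labelled T3 and 92 and 210 in those labelled vehicle at 24 h. HR had 320 and 506 counts with T3 and 227 and 143 with vehicle at 6 h, but 2 and 1 in the libraries labelled T3 and 19 and 26 in those labelled vehicle at 24 h. Both genes thus went against the labels at 24 h, and every direction at that time refers to the libraries as labelled. The keratins KRT7, KRT8 and KRT18 and the thyroid factors PAX8 and FOXE1 were present, whereas the thyroglobulin gene TG and the TSH receptor gene TSHR averaged at most 0.288 CPM (counts per 1e6 gene counts, TMM-scaled) in any group. The summed level of 8 fibroblast markers, nearly all of it COL1A1, was 627 to 723 CPM in libraries labelled T3 and 1145 to 1249 CPM in libraries labelled vehicle at 24 h, and 114 to 120 CPM with T3 and 214 CPM with vehicle at 6 h. The 6 epithelial markers summed to 403 to 421 CPM in libraries labelled T3 and 474 to 573 CPM in libraries labelled vehicle at 24 h, and to 1120 to 1144 CPM with T3 and 1060 to 1230 CPM with vehicle at 6 h. The 8 thyroid follicular markers, mostly PAX8 at 24 h, summed to 133 to 135 CPM in libraries labelled T3 and 135 to 177 CPM in libraries labelled vehicle at 24 h, and to 11.6 to 19.8 CPM with T3 and 25.8 to 26.5 CPM with vehicle at 6 h. Markers of endothelial cells, immune cells and C cells summed to at most 2.85 CPM in any library, with CDH5, CD3E, MS4A1 and CALCA among those at 0 throughout. The part of these marker levels and read shares in the results below was not tested.

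Of the 10 genes, 8 had a promoter window in the RefSeq table for GRCh38.p14, which spans 250 bases before and 50 bases after the start of the gene. Only the 250 bases before the start were searched, and below they alone are called the window. All 8 windows held the core TGACG of the cyclic AMP response element (CRE, bound by CREB, ATF and Jun dimers), which 21.2% of all 35116 windows held when both strands were searched. The sequences are shown because, for all but JUN, they carry the core that these promoters share. The TGACG of JUN lies 123 to 119 bases before the start, outside the stretch shown, which holds its CRE-like site. Each line gives bases before the start, 5′ to 3′ on the gene's own strand, whole to the start for JUNB, JUND and EGR1, up to 55 bases before it for FOS, and otherwise only the stretch around a site. Capitals mark CRE cores, CRE-like sites (TGACNTCA) and CArG boxes.
FOS (chr14:75278578-75278773, plus strand): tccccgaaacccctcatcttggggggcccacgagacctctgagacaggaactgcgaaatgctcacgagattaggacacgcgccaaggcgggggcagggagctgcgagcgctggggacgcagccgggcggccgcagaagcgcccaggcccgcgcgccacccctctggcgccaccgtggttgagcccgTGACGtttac
FOSB (chr19:45467926-45467950, plus strand): aaggggcgggTGACGtaagcagggg
FOSL2 (chr2:28392782-28392806, plus strand): agtctggggtTGACGtgagtgaatc
JUN (chr1:58784097-58784124, minus strand): ggccttggggTGACATCAtgggctattt
JUNB (chr19:12791236-12791485, plus strand): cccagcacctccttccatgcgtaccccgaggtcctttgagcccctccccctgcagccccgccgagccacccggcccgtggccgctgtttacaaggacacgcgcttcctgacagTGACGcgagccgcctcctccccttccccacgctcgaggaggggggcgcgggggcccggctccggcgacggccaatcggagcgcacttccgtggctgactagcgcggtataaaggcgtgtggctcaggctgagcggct
JUND (chr19:18281623-18281872, minus strand): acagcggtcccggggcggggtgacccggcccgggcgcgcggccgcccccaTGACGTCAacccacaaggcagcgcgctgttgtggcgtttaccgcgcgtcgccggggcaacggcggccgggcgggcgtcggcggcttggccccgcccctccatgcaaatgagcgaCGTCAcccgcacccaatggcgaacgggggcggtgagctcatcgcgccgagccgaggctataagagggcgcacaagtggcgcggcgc
EGR1 (chr5:138465229-138465478, plus strand): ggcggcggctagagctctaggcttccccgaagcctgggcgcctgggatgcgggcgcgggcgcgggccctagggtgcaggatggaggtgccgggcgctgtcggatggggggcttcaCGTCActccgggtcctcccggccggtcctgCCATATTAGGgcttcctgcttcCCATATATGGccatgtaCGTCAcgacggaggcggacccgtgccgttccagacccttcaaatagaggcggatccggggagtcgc
IER2 (chr19:13150261-13150285, plus strand): cccccgccccCGTCAcgccaccatc
The CRE-like site was found in JUN and JUND and in 6.87% of all windows, and in JUND it contains a CRE core on each strand. The CArG box, the binding sequence of serum response factor, was found in EGR1 alone, at 2 places, and in 1.16% of all windows. The motif TATAAA lay in FOS, FOSB and JUNB (10.7% of all windows), and the EGR1 site GCGNGGGCG in EGR1 itself (8.41%). No window of these 8 held the AP-1 site TGANTCA (6.57% of all windows), the E box CACGTG that MYC binds (6.34%) or the hormone receptor motif AGGTCA (12.1%). The motifs were chosen after the sequences had been seen, and a match is a description of letters, not a measured site.

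The genes covered a wide range of levels. Per kilobase of exon, MYC was the most abundant of the 10 at 6 h, with 405 and 420 CPM per kb in the T3 libraries and 449 and 432 in the vehicle libraries, above 99.3% and 99.5% of the 12577 annotated genes tested. JUND followed at 6 h with 94.2 and 106 CPM per kb with T3 and 120 and 96.5 with vehicle, then FOSL2, IER2, JUNB, FOSL1 and JUN, while FOS, EGR1 and FOSB each averaged at most 1.29 CPM per kb. Neighbours from MYC down to JUN in this order did not overlap in either group at 6 h, while FOS and EGR1 did. At 24 h the order was another. FOSL1 came first, with 22.8 and 22.4 CPM per kb in the libraries labelled T3 and 38.0 and 54.8 in those labelled vehicle, followed by JUND, FOSL2, JUN and MYC. At that time JUND and FOSL2 overlapped in the T3 libraries, where JUND had 14.5 and 19.0 and FOSL2 15.2 and 15.8 CPM per kb, and JUN and MYC overlapped in both groups. MYC lay above 65.8% of genes in the T3 libraries and 75.3% in the vehicle libraries at 24 h.

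**Figure D1:**
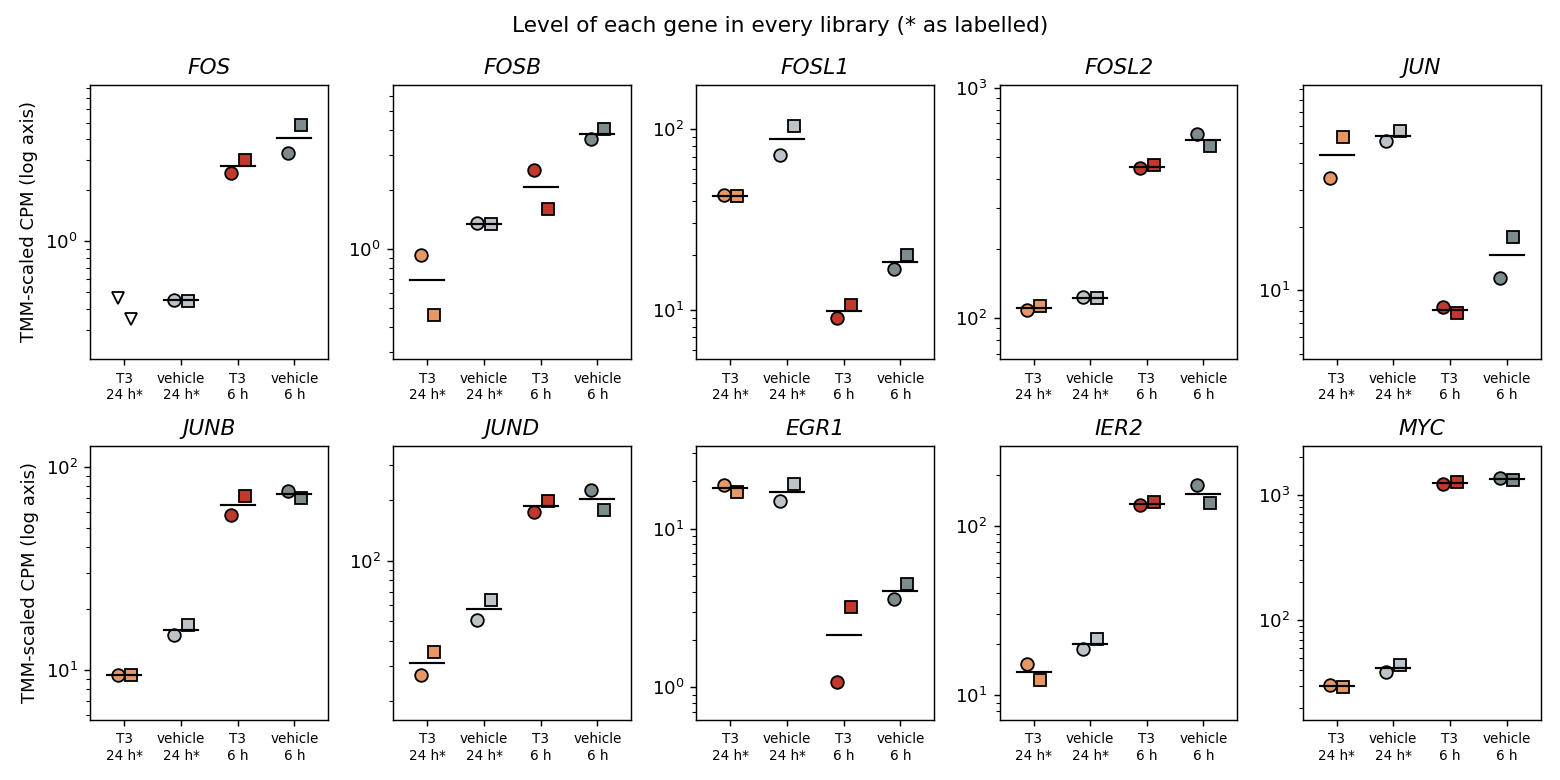
TMM-scaled CPM of the 10 genes (vertical log axis, with its own range in each panel) in each library; circles are replicate 1, squares replicate 2, bars the group mean, and open triangles mark the level of 3 counts where a library had 0. MYC stood at 29.3 to 44.2 CPM in the 24 h libraries and 1215 to 1347 CPM in the 6 h libraries, while FOSL1, JUN and EGR1 stood higher at 24 h.

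The clearest differences were between the times. Between 24 h and 6 h, 9 of the 10 genes changed within the T3 libraries and the same 9 within the vehicle libraries (edgeR quasi-likelihood test, adjusted p under 0.05). FOSL1, JUN and EGR1 rose and FOS, FOSL2, JUNB, JUND, IER2 and MYC fell, while FOSB passed in neither. This is read against a background in which 70.4% of all genes tested passed in the T3 libraries (35.1% higher, 35.2% lower) and 64.5% in the vehicle libraries (31.9% higher, 32.6% lower), so being called is not particular to these genes. FOS and FOSB passed the filter on low counts only through their 6 h libraries. A lower level in these bulk samples can mean fewer cells with the transcript or less of it per cell, which cannot be told apart.

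MYC moved farthest among the members with counts in every library. It had 30.4 and 29.3 CPM in the libraries labelled T3 at 24 h, against 1215 and 1262 CPM in the T3 libraries at 6 h, a 41.5-fold lower level (log2 fold change -5.38, SE 0.14, edgeR adjusted p = 2.63e-14). It had 38.5 and 44.2 CPM in libraries labelled vehicle at 24 h, against 1347 and 1297 CPM with vehicle at 6 h, a 31.8-fold lower level (log2 fold change -4.99, SE 0.14, edgeR adjusted p = 4.96e-14). All 4 libraries of 24 h thus lay far below all 4 of 6 h. Corrected for GC content and length, the log2 fold changes were -4.91 in T3 and -4.61 in vehicle libraries.

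Among the Fos family, FOSL1 rose and the other 3 stood lower at 24 h. FOSL1, which encodes Fra-1, had 43.1 and 42.3 CPM in libraries labelled T3 at 24 h, against 9.01 and 10.6 CPM with T3 at 6 h (log2 fold change 2.09, SE 0.23, edgeR adjusted p = 3.03e-07). In vehicle libraries it had 71.8 and 103 CPM at 24 h, against 16.8 and 20.0 CPM at 6 h (log2 fold change 2.27, SE 0.21, edgeR adjusted p = 8.38e-08). FOSL2, which encodes Fra-2, had 109 and 113 CPM in libraries labelled T3 at 24 h, against 446 and 462 CPM at 6 h, and 123 and 122 CPM in libraries labelled vehicle at 24 h, against 627 and 557 CPM at 6 h. Its log2 fold changes were -2.04 (SE 0.12) in T3 and -2.27 (SE 0.12) in vehicle libraries, with the groups well apart in both.

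FOS itself was scarce. It had 0 counts in both libraries labelled T3 at 24 h, which allows up to 0.463 and 0.346 CPM, against 7 and 15 counts with T3 at 6 h, or 2.52 and 3.01 CPM. With 3 counts over the group as the floor, that is at least 14.3-fold lower if the 6 h counts are taken as exact (edgeR adjusted p = 0.000121). The 95% interval of the ratio of pooled counts, which covers counting error only, reached up to 0.0935. With vehicle FOS had 2 and 3 counts at 24 h, against 11 and 12 at 6 h (log2 fold change -3.10, SE 0.80, edgeR adjusted p = 0.00294). The vehicle call was lost without vehicle replicate 2 of 6 h or either vehicle library of 24 h, the highest adjusted p being 0.0703. FOS passed the filter on low counts only through its 6 h libraries, so neither call is independent of that filter. FOSB had 6 and 4 counts in libraries labelled T3 at 24 h, against 7 and 8 at 6 h, and 6 and 9 in libraries labelled vehicle at 24 h, against 12 and 10 at 6 h. Its edgeR adjusted p was 0.0738 in T3 and 0.0610 in vehicle libraries.

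In the Jun family, JUN rose and JUNB and JUND fell. JUN had 34.0 and 53.6 CPM in libraries labelled T3 at 24 h, against 8.29 and 7.81 CPM at 6 h (log2 fold change 2.45, SE 0.27, edgeR adjusted p = 4.08e-07). In vehicle libraries it had 51.3 and 56.9 CPM at 24 h, against 11.4 and 17.9 CPM at 6 h (log2 fold change 1.91, SE 0.26, edgeR adjusted p = 6.28e-06). The times did not overlap in either. JUNB, a weaker activator that can restrain JUN, had 9.42 and 9.45 CPM in libraries labelled T3 at 24 h, against 57.7 and 72.1 CPM at 6 h, and 14.9 and 16.5 CPM in libraries labelled vehicle at 24 h, against 76.3 and 70.1 CPM at 6 h. JUND, usually the most steadily expressed Jun gene, had 27.0 and 35.4 CPM in libraries labelled T3 at 24 h, against 176 and 198 CPM at 6 h, and 50.9 and 63.9 CPM in libraries labelled vehicle at 24 h, against 224 and 180 CPM at 6 h. The log2 fold changes in T3 libraries were -2.79 for JUNB and -2.57 for JUND, and those in vehicle libraries -2.21 for JUNB and -1.81 for JUND.

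Correction for GC content and length moved the values of the GC-rich members. GC-rich genes as a whole stood lower at 24 h, the median log2 fold change running from 0.73 in the fifth of genes lowest in GC to -1.20 in the fifth highest within T3 libraries, and from 0.72 to -0.96 within vehicle libraries. JUND has 69.7% GC in its longest transcript, JUNB 64.9%, IER2 61.7% and FOSL1 60.0%, while FOSL2, MYC and FOS have 52.6% to 53.9%. With the trend against GC and length removed, JUND was at -0.06 in T3 (edgeR adjusted p = 0.768) and 0.22 in vehicle libraries (edgeR adjusted p = 0.247), so its call was lost and its direction with vehicle turned. JUNB kept a fall of smaller size, at -0.91 in T3 and -0.69 in vehicle libraries, as did IER2, at -2.11 in T3 and -1.96 in vehicle libraries. FOSL1 moved further from 0, to 3.35 in T3 and 3.31 in vehicle libraries. In the corrected fit 8 of the 10 genes passed in each set of libraries.

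IER2, which encodes a nuclear immediate early protein, fell in both sets. It had 15.3 and 12.2 CPM in libraries labelled T3 at 24 h, against 132 and 138 CPM at 6 h (log2 fold change -3.31, SE 0.17, edgeR adjusted p = 3.33e-11), and 18.7 and 21.3 CPM in libraries labelled vehicle at 24 h, against 174 and 136 CPM at 6 h (log2 fold change -2.95, SE 0.17). Exons of IER2 overlap the antisense gene AC011446.2 by 946 bases and exons of JUNB overlap HOOK2 by 259 bases, and since the strand setting of the counting is not given, reads of these pairs could be shared. EGR1 rose. It had 18.8 and 16.9 CPM in libraries labelled T3 at 24 h, against 1.08 and 3.21 CPM at 6 h (log2 fold change 2.89, SE 0.38, edgeR adjusted p = 3.16e-06), the lowest library holding 3 counts. With vehicle EGR1 had 14.9 and 19.2 CPM at 24 h, against 3.60 and 4.48 CPM at 6 h (log2 fold change 2.10, SE 0.38, edgeR adjusted p = 0.000112).

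**Figure D2:**
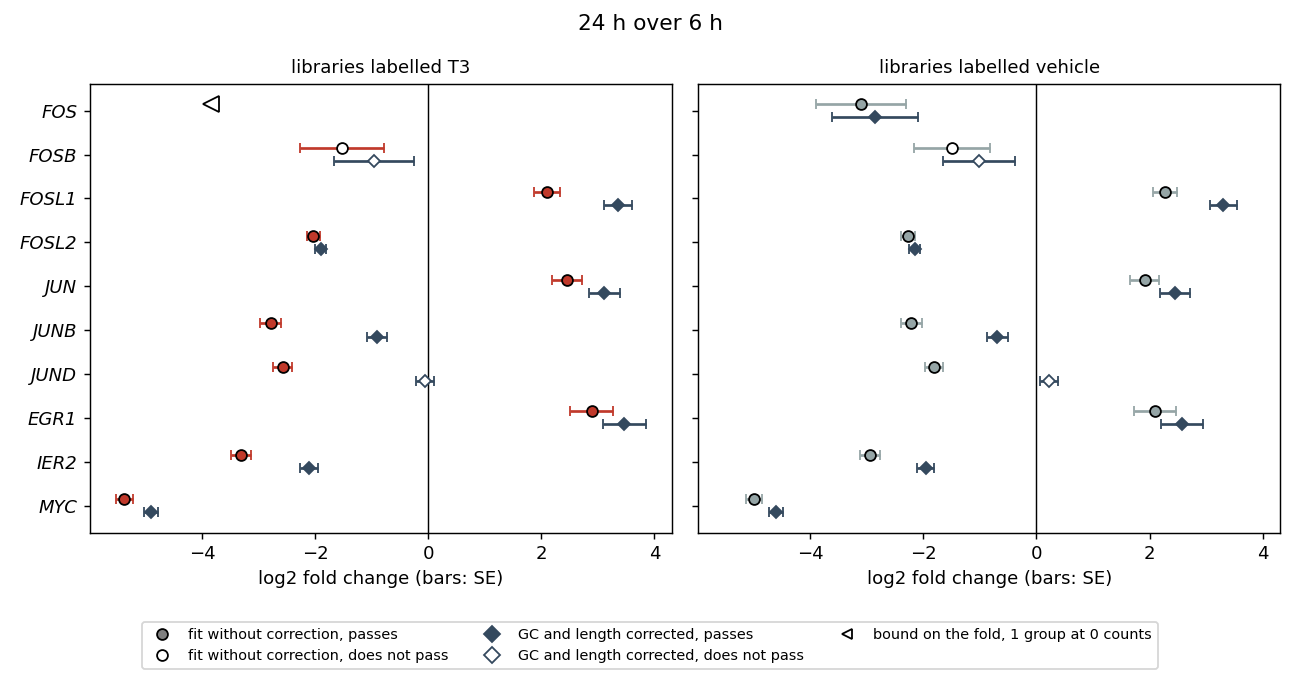
Log2 fold change of 24 h over 6 h (horizontal axis, bars SE) for each gene in the T3 libraries (left) and the vehicle libraries (right), with and without correction for GC content and length; filled symbols passed an adjusted p of 0.05. An open triangle is a bound for FOS, with 0 counts at 24 h and its 6 h counts taken as exact. FOSL1, JUN and EGR1 lie right of 0 and MYC has the leftmost symbols in both panels, and JUND moves to near 0 with the correction.

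With these changes, the make-up of both families differed between the times. FOSL1 made up 59.8% and 58.6% of the Fos family level per kb of exon in the libraries labelled T3 at 24 h, against 6.99% and 7.89% with T3 at 6 h, and 68.4% and 75.8% in libraries labelled vehicle at 24 h, against 9.07% and 11.7% with vehicle at 6 h. FOSL2 held most of the rest, at 39.7% and 41.2% in libraries labelled T3 at 24 h, against 91.2% and 90.4% at 6 h. JUN made up 32.8% and 38.5% of the Jun family in libraries labelled T3 at 24 h, against 1.83% and 1.49% at 6 h, and 29.0% and 27.0% in libraries labelled vehicle at 24 h, against 1.95% and 3.62% at 6 h. JUND held the largest Jun share in every library, between 48.3% and 57.7% at 24 h and between 68.9% and 73.5% at 6 h. FOS and FOSB together never exceeded a few percent of their family. The shares were not corrected for GC content.

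**Figure D3:**
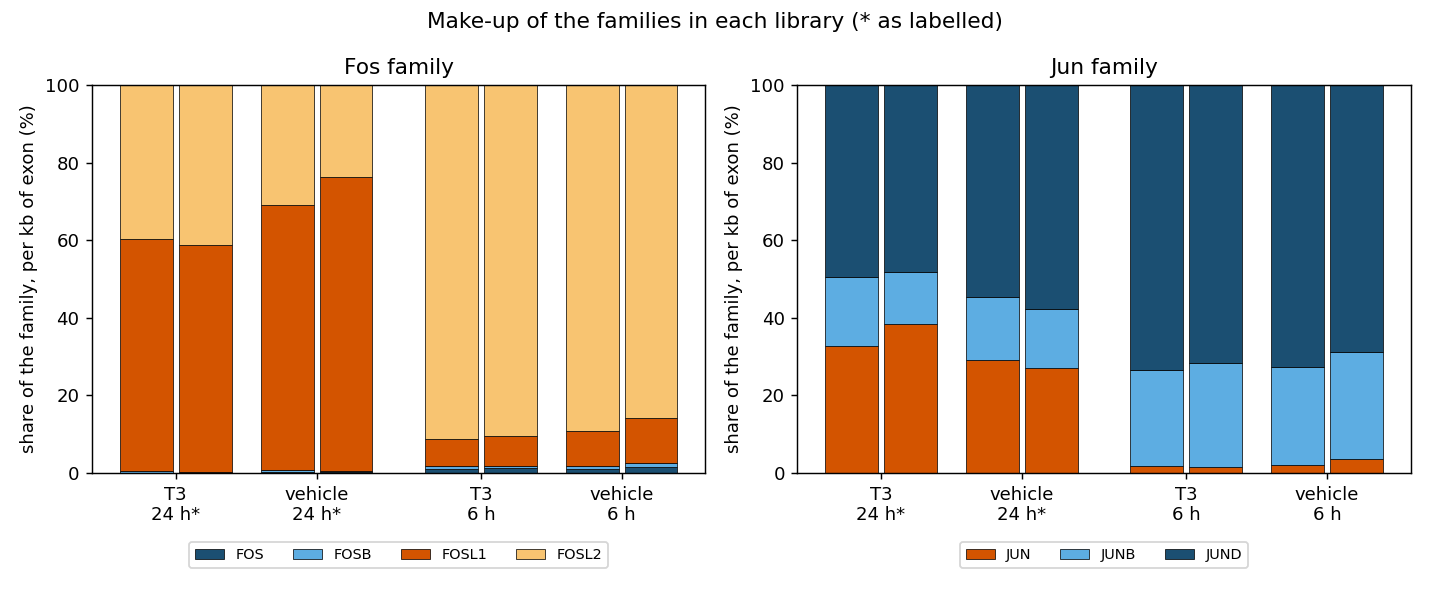
Share of each gene in the summed CPM per kb of exon of its family (vertical axis, %), 1 bar per library, for the Fos family (left) and the Jun family (right). FOSL1 and JUN take larger shares in all 4 libraries of 24 h than in any of 6 h.

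The study asks which transcripts respond to T3. At 24 h, 4 of the 10 genes were lower in the libraries labelled T3 than in those labelled vehicle, namely FOSL1, JUND, JUNB and MYC, and none was higher (edgeR adjusted p under 0.05). Of all genes tested, 13.3% passed in this comparison (7.76% lower, 5.58% higher). The groups did not overlap for 8 of the 10 genes, against 52.7% of all genes tested. These 8 were lower in the libraries labelled T3, as were 26.7% of all genes tested. GC-rich genes as a whole stood lower in the libraries labelled T3. The median log2 fold change was -0.53 in the fifth of genes highest in GC and 0.33 in the fifth lowest. Each of the 10 genes has more GC than at least 64.2% of the annotated genes tested. The overlap of groups was not corrected for GC content. FOSL1 had 43.1 and 42.3 CPM in the libraries labelled T3 and 71.8 and 103 CPM in those labelled vehicle (log2 fold change -1.04, SE 0.18, edgeR adjusted p = 0.00202). JUND had 27.0 and 35.4 CPM in the libraries labelled T3 and 50.9 and 63.9 CPM in those labelled vehicle (log2 fold change -0.88, SE 0.17, edgeR adjusted p = 0.00405). Both kept their calls whichever library was left out. JUNB had 9.42 and 9.45 CPM in the libraries labelled T3 and 14.9 and 16.5 CPM in those labelled vehicle (log2 fold change -0.74, SE 0.21, edgeR adjusted p = 0.0265). MYC had 30.4 and 29.3 CPM in the libraries labelled T3 and 38.5 and 44.2 CPM in those labelled vehicle, a 1.39-fold lower level (log2 fold change -0.48, SE 0.13, edgeR adjusted p = 0.0269).

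The JUNB call was lost without T3 replicate 2 or vehicle replicate 2 of 24 h (highest edgeR adjusted p = 0.119). The MYC call was kept in 3 of 8 fits that left out 1 library and lost without either T3 library of 24 h, vehicle replicate 2 of 24 h or either T3 library of 6 h (highest edgeR adjusted p = 0.127). None of the 4 calls held with the GC and length correction, which gave -0.64 for FOSL1 (edgeR adjusted p = 0.113), -0.05 for JUND (0.919), -0.13 for JUNB (0.806) and -0.31 for MYC (0.226); in that fit 3 of the 10 genes, FOS, FOSL1 and MYC, had an unadjusted p under 0.05.

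The other genes did not pass at 24 h. FOS had 0 counts in both libraries labelled T3 and 2 and 3 in those labelled vehicle (edgeR adjusted p = 0.0816). With the same floor that is at least 2.26-fold lower in the libraries labelled T3, if the vehicle counts are taken as exact. The 95% interval of the ratio of pooled counts, which covers counting error only, reached up to 0.803. IER2 had 15.3 and 12.2 CPM in the libraries labelled T3 and 18.7 and 21.3 CPM in those labelled vehicle (log2 fold change -0.56, SE 0.19, edgeR adjusted p = 0.0590). JUN and EGR1 overlapped between the groups, and their 95% intervals of the log2 fold change ran from -0.75 to 0.15 and from -0.54 to 0.65. The interval of FOSL2 ran from -0.39 to 0.10 and that of FOSB from -2.52 to 0.58.

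At 6 h, where KLF9 and HR followed the labels, only FOSL2 passed, and it was lower with T3. It had 446 and 462 CPM with T3 and 627 and 557 CPM with vehicle (log2 fold change -0.38, SE 0.11, edgeR adjusted p = 0.0451). In this comparison 7.64% of all genes passed (3.86% lower, 3.78% higher), so 1 of 10 is near the background. The call was kept in 2 of 8 fits that left out 1 library; it was lost without any of the 4 libraries of 6 h or either T3 library of 24 h (highest edgeR adjusted p = 0.398), and with the GC and length correction (-0.26, edgeR adjusted p = 0.137). The groups did not overlap for 7 of the 10 genes at 6 h, against 59.7% of all genes tested. These 7 were lower with T3, as were 30.8% of all genes tested, and of the 7 only FOSL2 passed the test. FOSB, among the 7, would not have passed the filter on low counts without the vehicle libraries of 6 h, where it stood higher. Its place in this count is therefore not independent of that filter. GC-rich genes as a whole stood lower with T3 at 6 h too. The median log2 fold change was -0.31 in the fifth of genes highest in GC and 0.30 in the fifth lowest.

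FOSL1 had 9.01 and 10.6 CPM with T3 and 16.8 and 20.0 CPM with vehicle at 6 h, just outside the threshold (log2 fold change -0.87, SE 0.27, edgeR adjusted p = 0.0541). JUN had 8.29 and 7.81 CPM with T3 and 11.4 and 17.9 CPM with vehicle (log2 fold change -0.84, SE 0.32, edgeR adjusted p = 0.126). MYC had 1215 and 1262 CPM with T3 and 1347 and 1297 CPM with vehicle, with a 95% interval of the log2 fold change from -0.34 to 0.15. The intervals were -0.53 to 0.20 for JUNB, -0.44 to 0.21 for JUND and -0.52 to 0.12 for IER2, whose groups overlapped. FOS, FOSB and EGR1 rested on 3 to 16 counts per library at 6 h, and their intervals were wide, from -1.93 to 0.88, from -2.36 to 0.49 and from -1.79 to 0.31.

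**Figure D4:**
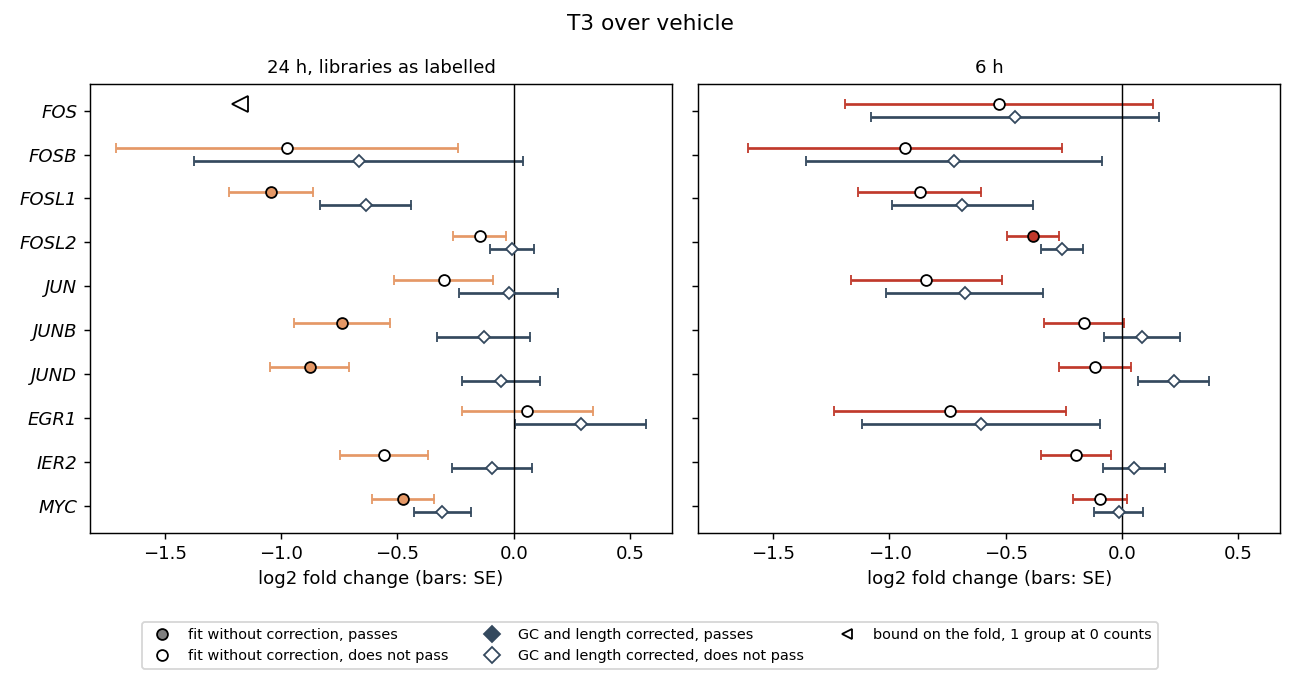
Log2 fold change of T3 over vehicle (horizontal axis, bars SE) for each gene at 24 h as labelled (left) and at 6 h (right). Values are given with and without correction for GC content and length. Filled symbols passed an adjusted p of 0.05, and the open triangle is the bound for FOS, with its vehicle counts taken as exact. The filled symbols are FOSL1, JUNB, JUND and MYC at 24 h and FOSL2 at 6 h, all left of 0, and no corrected value is filled.

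The test of whether the T3 response differed between 24 h and 6 h called none of the 10 genes with edgeR (1.84% of all genes passed, 0.849% higher and 0.992% lower) and none with DESeq2. At an unadjusted p under 0.05 there were 4 with edgeR, FOS, JUNB, JUND and MYC, and 2 with DESeq2, JUND and MYC. JUND had the lowest adjusted p (log2 difference -0.76, SE 0.23, edgeR adjusted p = 0.0993), and for MYC the 95% interval of the difference ran from -0.76 to -0.01. The calls at 24 h without calls at 6 h are thus not shown to differ between the times. The test takes the 24 h libraries as labelled, and its size and sign for every gene depend on those labels, which KLF9 and HR went against.

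Genes known to act with or downstream of these factors are given by the counts of 9 lists. Between the times, these counts are read against the 70.4% of all genes tested that passed in T3 and the 64.5% that passed in vehicle libraries. Of 25 tested genes that MYC activates, mostly in ribosome production, 22 fell and none rose in T3 libraries between 24 h and 6 h, with a median log2 fold change of -1.57 against 0.02 over all genes. In vehicle libraries 16 fell and 3 rose (0 to 4 rose with 1 library left out), with a median of -0.94 against 0.03. With the GC and length correction 24 and 16 fell and none rose. BOP1, a ribosome assembly factor, had 10.3 ± 3.14 CPM in libraries labelled T3 at 24 h and 139 ± 6.27 CPM with T3 at 6 h (SD, n = 2 each; log2 fold change -3.78, SE 0.21, edgeR adjusted p = 6.37e-11). RRS1, needed for the large ribosomal subunit, had 8.10 ± 0.106 CPM in libraries labelled T3 at 24 h and 90.4 ± 2.99 CPM at 6 h, and 11.3 ± 0.0441 CPM in libraries labelled vehicle at 24 h and 69.1 ± 5.52 CPM at 6 h. SRM, which makes spermidine, had 19.5 ± 5.41 CPM in libraries labelled T3 at 24 h and 146 ± 6.77 CPM at 6 h. FBL, the fibrillarin gene, had 112 ± 31.2 CPM in libraries labelled vehicle at 24 h and 388 ± 40.5 CPM at 6 h.

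MYC's partners and antagonists also stood lower at 24 h, with 10 of 12 tested lower and 2 higher in T3 libraries and 7 lower and none higher in vehicle libraries. The median log2 fold change was -0.88 in T3 and -0.69 in vehicle libraries, against 0.02 and 0.03 over all genes. Of all genes tested, 35.2% were called lower in T3 and 32.6% in vehicle libraries. With the GC and length correction none was higher and 8 lower in T3 libraries, and 1 higher and 7 lower in vehicle libraries. MNT, a MAX-binding repressor that opposes MYC, had 20.0 ± 0.932 CPM in libraries labelled T3 at 24 h and 78.3 ± 6.24 CPM at 6 h (SD, n = 2 each; log2 fold change -1.97, SE 0.16). MXD4, of the same repressor group, had 3.54 ± 0.858 CPM in libraries labelled T3 at 24 h and 21.8 ± 3.88 CPM at 6 h. Of 5 genes that MYC represses, 2 rose and 3 fell in T3 libraries and 1 rose and 3 fell in vehicle libraries. GADD45A, a growth arrest gene, had 141 ± 17.8 CPM in libraries labelled T3 at 24 h and 17.9 ± 1.22 CPM at 6 h, while NDRG1 had 21.1 ± 0.138 CPM in libraries labelled T3 at 24 h and 212 ± 4.65 CPM at 6 h.

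AP-1 targets were split, with 6 of 12 tested higher and 5 lower in T3 libraries at 24 h against 6 h, and 6 higher and 4 lower in vehicle libraries. With the correction 6 were higher and 3 lower in T3 libraries. HMGA2, a chromatin protein, had 124 ± 1.47 CPM in libraries labelled T3 at 24 h and 2.28 ± 0.170 CPM at 6 h (SD, n = 2 each; log2 fold change 5.73, SE 0.26, edgeR adjusted p = 4.64e-12). The cytokine genes CXCL8 and IL6 had 347 ± 20.2 and 93.9 ± 4.38 CPM in libraries labelled T3 at 24 h, against 6.99 ± 0.820 and 4.71 ± 0.991 CPM at 6 h. Of 8 tested EGR1 targets, 3 rose and 3 fell in either set. ICAM1, an adhesion receptor, had 65.7 ± 8.22 CPM in libraries labelled T3 at 24 h and 1.30 ± 0.708 CPM at 6 h, and PDGFA, a growth factor, had 17.9 ± 2.38 CPM in libraries labelled T3 at 24 h and 3.71 ± 0.142 CPM with T3 at 6 h. F3, tissue factor, had 18.6 ± 4.10 CPM in libraries labelled T3 at 24 h and 61.4 ± 0.151 CPM with T3 at 6 h.

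Other immediate early genes moved both ways, 12 of 23 tested higher and 11 lower in T3 libraries and 7 higher and 9 lower in vehicle libraries. With the GC and length correction 12 were higher and 9 lower in T3 libraries and 11 higher and 9 lower in vehicle libraries, where the median log2 fold change turned to 0.27, against -0.09 without it. NR4A2, an orphan nuclear receptor, had 0.636 ± 0.411 CPM in libraries labelled T3 at 24 h and 23.3 ± 3.88 CPM at 6 h (SD, n = 2 each; log2 fold change -5.23, SE 0.45). SGK1, a serum-induced kinase, had 7.60 ± 3.76 CPM in libraries labelled T3 at 24 h and 142 ± 0.787 CPM at 6 h, and IER5L had 1.89 ± 0.388 CPM in libraries labelled T3 at 24 h and 46.6 ± 3.75 CPM with T3 at 6 h. Of 11 tested bZIP partners, 7 rose and 2 fell in T3 libraries and 7 rose and 3 fell in vehicle libraries; ATF2 had 101 ± 17.0 CPM in libraries labelled vehicle at 24 h and 36.8 ± 2.75 CPM with vehicle at 6 h. Of 19 upstream kinases and SRF-associated factors, 10 rose and 8 fell in T3 libraries and 9 rose and 8 fell in vehicle libraries; ELK1 had 14.3 ± 3.02 CPM in libraries labelled T3 at 24 h and 74.2 ± 9.56 CPM with T3 at 6 h, and ELK3 had 84.8 ± 7.19 CPM in libraries labelled T3 at 24 h and 22.2 ± 0.315 CPM with T3 at 6 h. Of 13 heat shock chaperones, 11 fell and none rose in T3 libraries and 8 fell and 4 rose in vehicle libraries. With the GC and length correction, the chaperones had 12 lower in T3 libraries and 2 higher and 6 lower in vehicle libraries, the bZIP partners 7 higher and 3 lower in T3 and 3 higher and 2 lower in vehicle libraries, and the upstream factors 6 higher and 6 lower in T3 and 6 higher and 5 lower in vehicle libraries.

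For T3 against vehicle at 6 h, 7.64% of all genes tested passed (3.78% higher, 3.86% lower). The same lists had at most 4 calls in 1 direction, apart from the heat shock chaperones. Of these 13, 11 were higher (7 to 13 over the fits that left out 1 library). HSPA1A had 480 ± 8.03 CPM with T3 and 80.6 ± 14.3 CPM with vehicle at 6 h (SD, n = 2 each; log2 fold change 2.57, SE 0.19, edgeR adjusted p = 1.59e-06), although HSPA1A and HSPA1B are near-identical copies whose reads are uncertain individually. Of the 25 MYC-activated genes tested, 4 were higher (0 to 9 with 1 library left out, 2 with the correction) and none lower. GNL3, a nucleolar GTPase, had 281 ± 0.0435 CPM with T3 and 181 ± 3.37 CPM with vehicle. Of 12 AP-1 targets tested, 2 were lower (1 to 4), of which PLAU, the urokinase gene, had 2.90 ± 0.991 CPM with T3 and 9.18 ± 1.45 CPM with vehicle. Of 23 other immediate early genes tested, 2 were higher (0 to 3) and 2 lower (0 to 2), among them NR4A2, with 23.3 ± 3.88 CPM with T3 and 9.99 ± 0.301 CPM with vehicle. Higher and lower calls numbered 2 and 1 of 8 tested EGR1 targets, 1 and 1 of 12 MYC partners and 1 and 1 of 11 bZIP partners. They numbered 1 and 0 of 19 upstream factors and 0 and 1 of 5 MYC-repressed genes. Every one of these list counts moved by over 1.5 times when the first vehicle library or either T3 library of 6 h was left out.

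At 24 h, in the libraries as labelled, no list had more than 4 calls in 1 direction. Of all genes tested, 13.3% passed (5.58% higher, 7.76% lower). Higher and lower calls numbered 2 and 4 of 25 tested MYC-activated genes (0 to 3 and 2 to 6 with 1 library left out). For 12 MYC partners they were 1 and 4 (0 to 1 and 2 to 5) and for 12 AP-1 targets 3 and 3 (0 to 2 and 2 to 3). For 19 upstream factors they were 0 and 3 (0 to 1 and 3 to 4) and for 11 bZIP partners 1 and 3 (0 to 2 and 1 to 3). They numbered 2 and 0 of 5 MYC-repressed genes (1 to 3 and 0), and 1 and 1 each of 23 other immediate early genes, 8 EGR1 targets and 13 heat shock chaperones. Without T3 replicate 2 of 24 h, 6 of these list counts moved by over 1.5 times, all but those of MYC partners, upstream factors and chaperones. JDP2, which dimerises with Jun and represses AP-1, had 18.2 ± 0.396 CPM in the libraries labelled T3 and 37.1 ± 4.40 CPM in those labelled vehicle at 24 h (SD, n = 2 each; log2 fold change -1.03, SE 0.18, edgeR adjusted p = 0.00217). CDKN1A, a cell cycle inhibitor gene that MYC represses, had 109 ± 20.7 CPM in the libraries labelled T3 and 65.5 ± 0.357 CPM in those labelled vehicle, and ZBTB17, through which MYC represses, had 7.95 ± 1.64 CPM in the libraries labelled T3 and 22.7 ± 0.335 CPM in those labelled vehicle. With the GC and length correction, each list had 0 to 2 calls in each direction.

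The genes most like 4 of the members over the 8 libraries were found by the root mean square difference of log2 CPM, each gene centred on its own mean, among 10123 candidates. Nearest to MYC was PTGES, a prostaglandin E synthase gene (0.154), followed by SMOC1 and PGAP2; PTGES had 2.07 to 4.02 CPM in the 4 libraries of 24 h and 102 to 118 CPM in the 4 of 6 h. Nearest to EGR1 were AC058791.1 (0.197), DNAJC18 (0.205) and THRB (0.278), the gene of thyroid hormone receptor beta. THRB had 37.7 and 31.4 CPM in libraries labelled T3 at 24 h, 29.3 and 40.8 CPM in libraries labelled vehicle at 24 h, 3.97 and 5.41 CPM with T3 at 6 h and 6.60 and 8.97 CPM with vehicle at 6 h. Nearest to JUN were RP11-564D11.3 (0.150), GSDMB (0.165) and OPTN (0.174). FOS had no near neighbour, SLC27A5 being the closest at 0.573. FOS itself had only 0 to 15 counts per library, while candidates averaged at least 10 CPM. The part of counting error in its distances was not tested.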

How the data were processed

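Per the labels, libraries were prepared from total RNA after removal of ribosomal RNA, using a KAPA HyperPrep kit. For each of the 8 libraries the authors deposited raw read counts by gene symbol, without normalisation or pooling. CASAVA 1.7, STAR 2.7, HTSeq and DESeq2 are named with hg38 per the submitters' processing notes. Neither the annotation release nor the strand setting is given in the sources used here. The 5 summary rows of each table were left out of library sizes and tests, and reads outside features made up 48.2% to 58.2% of the uniquely aligned ones.

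The whole table was tested with edgeR 4.0.16 in R 4.3.3 (TMM, filterByExpr by group, robust quasi-likelihood F test, 1 coefficient per group over all 8 libraries, 4 residual degrees of freedom). Of 56832 genes, 14611 passed the filter, all 10 members among them, and p-values were adjusted over these by the Benjamini-Hochberg method with a threshold of 0.05. The test was checked on simulated counts. The floor of 3 counts equals 0.346 to 1.22 CPM per library; floors cover counting error only, since the reads carry no molecular identifiers. Positions, GC content and exon lengths came from GENCODE 29 (GRCh38), matched by symbol for 12577 tested genes, and promoter windows from RefSeq (GRCh38.p14). Alternatives were DESeq2 1.42.0 size factors, the DESeq2 test, no filter, a replicate block, only the 4 libraries compared, correction for GC content and length (lowess span 0.3), and leaving out each library.

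Besides the members, KLF9 and HR, the text names from each of the 9 lists at most 3 genes per comparison, those with the largest changes past the threshold, provided the groups did not overlap and the overall mean reached 1 CPM. A few genes named by this rule or held in the marker lists are not reported here. The 3 nearest patterns were sought among genes of at least 10 CPM. The members and lists were chosen with earlier results of these data known.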

Additional observations from a re-analysis of the deposited data

Results flagged for a closer look

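None of the 10 AP-1, EGR1, IER2 and MYC genes was called for a difference of the T3 response between 24 h and 6 h (edgeR adjusted p of the difference, threshold 0.05). A missing call does not show that the responses were equal. All values here take the 24 h libraries as labelled, and the size and sign of every difference depend on those labels, which KLF9 and HR went against. Of the other genes named by the rule, 11 that were called for a difference are reported here. The log2 difference, the response at 24 h as labelled minus that at 6 h, was -7.03 for KLF9 (SE 0.57, edgeR adjusted p = 4.02e-06). Its T3 response was -3.08 at 24 h and 3.95 at 6 h on the log2 scale. For HR it was -4.96 (SE 0.54, edgeR adjusted p = 0.000127), with -4.19 at 24 h and 0.77 at 6 h, where the 24 h value rests on 3 counts in the libraries labelled T3.

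Among the chaperones the difference was -2.51 for HSPA1A, -1.94 for HSPA1B, -1.53 for HSPH1 and -1.73 for HSPB1. HSPA1A stood at 0.06 at 24 h and 2.57 at 6 h. Among genes that MYC activates it was -1.39 for SRM and -1.06 for NME1, and for CDKN1A, which MYC represses, it was 1.00. SRM stood at -1.04 at 24 h and 0.35 at 6 h, and CDKN1A at 0.74 at 24 h and -0.26 at 6 h. It was 2.02 for the AP-1 target CXCL8, and for the immediate early gene GADD45B it was -1.67. CXCL8 stood at 0.49 at 24 h and -1.53 at 6 h. For the 9 genes besides KLF9 and HR, the edgeR adjusted p of the difference lay between 0.000184 and 0.0312.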

How the results depend on the processing

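Over the 6 other settings and the 8 fits that left out 1 library, 14 of the values fitted for the members turned direction. Of the rest, 25 lost their call and 19 gained one, while 623 did neither. Values that turned are counted only as turned. They include JUND for 24 h over 6 h in vehicle libraries with the GC and length correction, which also lost its call. Causes were not tested. For T3 against vehicle at 6 h, the count of members called was 2 with DESeq2 size factors, 2 with the replicate block, 3 with only the 4 libraries compared, 0 with the GC and length correction (2 at an unadjusted p under 0.05) and 0 to 2 with 1 library left out. At 24 h it was 2 with only the 4 libraries compared, 0 with the GC and length correction (3 unadjusted) and 2 to 4 with 1 library left out. For the difference of the responses it was 1, JUND, without the filter, and 0 to 1 with 1 library left out. DESeq2's test called as many members as edgeR in all 5 comparisons. Between the times, 8 to 10 members in vehicle and 9 to 10 in T3 libraries were called with 1 library left out. With the GC and length correction, the T3 log2 fold change at 6 h turned to 0.087 for JUNB, 0.22 for JUND and 0.053 for IER2, that of 24 h over 6 h with vehicle to 0.22 for JUND, and the difference of responses to 0.055 for FOSB and 0.049 for FOSL1. With 1 library left out, the change at 6 h ran from -0.23 to 0.062 for JUND and from -0.33 to 0.00061 for IER2, that at 24 h from -0.14 to 0.26 for EGR1, and the difference from -0.56 to 0.41 for FOSB and from -0.48 to 0.11 for FOSL1.

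Over the whole table, 1117 genes were called at 6 h, against 447 with the GC and length correction, 2896 with only the 4 libraries compared and 132 to 1682 with 1 library left out. At 24 h 1950 were called, against 250 with the correction, 702 with only the 4 libraries compared and 1132 to 2059 with 1 library left out. For the difference, 269 were called, against 674 without the filter and 49 to 757 with 1 library left out. The median over all genes moved by over 0.1 in 2 cases, by -0.11 for the difference without the filter and by -0.15 for 24 h over 6 h in T3 libraries with the correction. Calls at 6 h were 49.5% higher ones, against 63.1% without the filter and 34.7% with the correction, and at 24 h 41.8%, against 23.6% with the correction. The counts gave no clear sign that the replicate numbers pair the libraries (correlation of same-numbered deviations -0.02 to 0.08 over 6 pairs of groups). Over all genes tested, such values cannot exclude a small shared effect. The replicate block gave 2 member calls at 6 h and 5 at 24 h. Depth limits FOS, FOSB and EGR1 most, with at most 16 counts per library at 6 h.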
